A study of Sus scrofa with 20 samples.

Results

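Expression of 8 genes of amino acid breakdown and nitrogen disposal was examined in testis and liver of boars with high and low androstenone, the testicular steroid that gives boar taint its urine-like smell. The genes were SDS (XM_001928302.2), HAL (XM_001925061.1), HAAO (XM_003125193.1), TAT (XM_003126884.1), OTC (NM_001164002.1), ARG1 (NM_214048.2), ARG2 (XM_001928679.2) and GLUL (NM_213909.1). They are 8 of the 21755 reference mRNA IDs in the count data, and each of them resolved to 1 ID, 7 through a table of RefSeq genes and HAAO through its ID in the study. SDS, HAL, HAAO and ARG2 were chosen on their difference between androstenone groups in these samples, HAL in both tissues, SDS in liver, and HAAO and ARG2 in testis. Those differences are therefore given below as a description with no test. The comparison between tissues played no part in that choice and was tested for all 8 genes. It uses the same libraries, among them those on whose levels SDS, HAL, HAAO and ARG2 were chosen.

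Amino acids that are not used for protein lose their nitrogen mainly in the liver, where hepatocytes pass it to the urea cycle or to glutamine. SDS, HAL, HAAO and TAT are enzymes of the breakdown of serine, histidine, tryptophan and tyrosine, and of these SDS and TAT are known to respond to feeding and glucocorticoids in liver. OTC and ARG1 are enzymes of the urea cycle, ARG2 is the mitochondrial arginase found in many tissues outside the liver, and GLUL is glutamine synthetase, which in liver is restricted to the hepatocytes around the central veins.

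The samples came from 10 intact boars of a Duroc x F2 cross, the F2 having been bred from F1 (Leicoma x German Landrace) animals and Large White pigs. All were labelled as 116 days old. They formed the groups testis low, testis high, liver low and liver high androstenone, with 5 samples each and no treatment, and the study took both tissues from the same boars. The labels do not tie a testis sample to a liver sample, so a boar's 2 libraries could not be matched.

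Each library was 1 sample, and total counts were 6161397 to 15975386 in testis and 5796973 to 26783002 in liver. Levels are given as counts per 1000000 (CPM) on a TMM scale common to the 20 libraries, and a level applies to 1 gene only, since transcript lengths were not used. At these depths 3 counts equalled 0.188 to 0.487 CPM of the library total in testis and 0.112 to 0.518 in liver. On the TMM scale of the levels, 3 counts averaged 0.232 CPM in testis and 0.425 in liver. Levels of fewer counts were not separable from 0. These floors cover counting error only. Total counts fell into libraries under and over 10 M, with 2 low and 3 high androstenone libraries under it in each tissue. The liver high androstenone library of replicate 3 had the most counts and the lowest TMM factor, 0.515. Summed hepatocyte and Leydig cell markers followed the tissue labels. The 4 hepatocyte markers found of 9 summed to 84609 to 247296 CPM in liver and 32.8 to 120 in testis. The 4 Leydig cell markers found of 6 summed to 694 to 3406 CPM in testis and 1.46 to 23.9 in liver. Of these, HSD3B1 alone did not go with the labels, with medians of 3.20 CPM in testis and 3.72 in liver. The 4 bile duct cell markers found of 5 summed to 20.6 to 73.4 CPM in testis and 8.75 to 25.4 in liver, but they were divided. By medians, EPCAM (24.7 CPM in testis and 2.62 in liver) and SOX9 (2.89 and 0.296) were higher in testis. KRT19 (2.47 CPM in testis and 10.1 in liver) and SPP1 (0.472 and 3.11) were higher in liver. In such bulk samples, fewer cells of a type and less RNA per cell cannot be told apart.

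By the fitted fold changes, 6 of the 8 genes were higher in liver and 2, GLUL and ARG2, were higher in testis. ARG2 had nearly equal medians, 25.4 CPM in testis and 26.6 in liver. All 8 were called in edgeR's quasi-likelihood test of 10 liver against 10 testis libraries, which needed an adjusted p under 0.05 with a difference of 1.5-fold or more. Among all 19065 IDs tested, 32.2% were called higher in liver and 43.5% higher in testis. All 10 liver libraries lay above all 10 testis libraries for SDS, HAL, HAAO, TAT, OTC and ARG1, as they did for 15.3% of all IDs. For GLUL all testis libraries lay above all liver libraries, as for 27.5% of IDs, and for ARG2 the tissues overlapped. The call depends on the common scale, on which the median ID had a log2 fold change of -0.31. With library totals as the scale the median was -1.28 and 3577 IDs were called higher in liver against 11348 higher in testis (6143 and 8293 on the TMM scale), while the 8 genes kept their directions and calls.

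**Figure D1:**
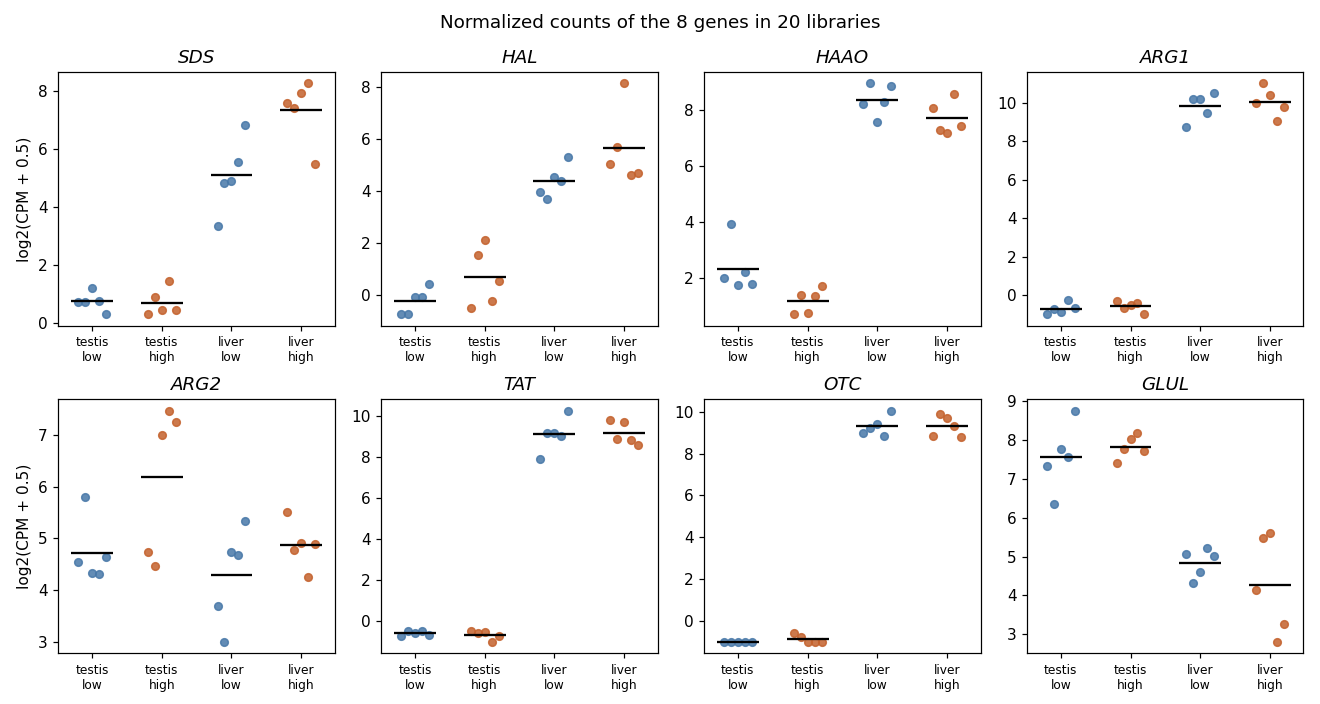
Each panel shows 1 gene, with log2(CPM + 0.5) on the vertical axis and the 5 libraries of each group as points, blue for low and orange for high androstenone, and a black line at the group mean. The scale differs between panels. SDS, HAL, HAAO, ARG1, TAT and OTC were higher in every liver library than in any testis library, GLUL had the opposite order, and ARG2 was highest in 3 testis libraries of the high androstenone group.

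SDS, serine dehydratase, turns serine into pyruvate and ammonia. Its level was 0.745 to 2.26 CPM in the testis libraries (9 to 41 counts) and 9.79 to 304 in the liver libraries. The means were 1.22 ± 0.489 CPM in testis and 118 ± 103 in liver (SD, n = 10 each), a log2 fold change of 6.24 (SE 0.42, adjusted p = 7.45e-13, edgeR). HAL, histidine ammonia-lyase, catalyses the first step of histidine breakdown. It had between 1 and 56 counts in the testis libraries, with a mean of 0.969 ± 1.22 CPM, and 52.4 ± 81.3 CPM in liver (SD, n = 10 each). This gave a log2 fold change of 5.70 (SE 0.55, edgeR adjusted p = 8.22e-10). Both genes had a wide spread in liver, where the highest SDS library had 31.0 times the level of the lowest and the highest HAL library 23.0 times.

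HAAO, which forms the quinolinate precursor on the route from tryptophan to NAD, had 1.12 to 14.6 CPM in testis and 142 to 488 in liver. Its log2 fold change was 6.45 (SE 0.36, edgeR adjusted p = 1.70e-14). TAT, tyrosine aminotransferase, starts tyrosine breakdown. It was close to the counting limit in testis, with 0 to 4 counts per library and 24 in all, and had 239 to 1218 CPM in liver. Its log2 fold change was 11.82 (SE 0.40, edgeR adjusted p = 2.19e-18). Pooled over libraries, the liver level of TAT was 4047 times that in testis, with an exact 95% interval from 2720 to 6317 that covers counting error only.

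OTC joins ornithine and carbamoyl phosphate in the urea cycle. It had 445 to 1068 CPM in liver, and the highest liver library had 2.40 times the level of the lowest, the narrowest such range in liver among the 8 genes. In testis it was at 0 in 8 of 10 libraries and had 3 and 2 counts in replicates 1 and 2 of the high androstenone group. The pooled ratio of liver to testis was 19880, with an exact 95% counting interval of 8518 to 61227 that is wide because only 5 testis counts stand behind it. The fit gave an adjusted p of 2.30e-17 (edgeR), and its fold change depends on how zeros are treated and is not given.

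The 2 arginases split arginine into ornithine and urea, and their tissue patterns differed. ARG1, the cytosolic liver form, had 0 to 6 counts in the testis libraries and 428 to 2084 CPM in liver. Its log2 fold change was 12.69 (SE 0.48, edgeR adjusted p = 8.37e-18). That value rests on 23 testis counts in all. Pooled over libraries, the liver level of ARG1 was 7133 times that in testis, with an exact 95% counting interval of 4753 to 11252. ARG2 had 64.6 ± 62.3 CPM in testis and 26.0 ± 11.3 in liver (SD, n = 10 each), with ranges of 19.3 to 177 and 7.55 to 44.9. Its medians were nearly equal, at 25.4 CPM in testis and 26.6 in liver. Its log2 fold change of -1.05 (SE 0.35) passed the test with edgeR adjusted p = 0.00822. That test includes the testis libraries of both androstenone groups, on whose ARG2 levels the gene was chosen. The low androstenone libraries alone gave -0.35 and the high androstenone libraries -1.70. Both values are a description with no test, since the testes of either group entered the choice. Counted within each library and not per length, ARG2 made up 98.3% to 100% of the arginase counts in testis (median 99.8%) and 0.635% to 4.14% in liver (median 2.74%).

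GLUL condenses ammonia and glutamate into glutamine. In testis it had 82.0 CPM in the lowest library, a median of 215 and 434 in the highest, and in liver 6.51, 27.7 and 48.0. Testis was 8.31 times liver by the means, and the log2 fold change was -3.06 (SE 0.33, edgeR adjusted p = 6.32e-09). The lowest testis library thus still exceeded the highest liver library.

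Other genes of amino acid metabolism were examined through 9 lists that hold 50 further IDs found in the data. Of these, 33 were higher in liver, 10 were higher in testis and 7 were not called. Among all IDs 32.2% were called higher in liver and 43.5% higher in testis. The median log2 fold change was 2.11 in the lists against -0.31 for all IDs. Every ID found was higher in liver for serine, glycine and threonine (6 of 6), tryptophan and kynurenine (5 of 5) and methionine and cysteine (5 of 5). The same held for the urea cycle (2 of 2) and phenylalanine and tyrosine (1 of 1). The 5 tryptophan and kynurenine IDs stand for 4 genes, since KYAT3 has 2 IDs with similar levels. For many genes of these lists no ID was matched here, among them CPS1, ASS1 and ASL of the urea cycle, and the only histidine ID, HDC, was not called.

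SDSL, the paralog of SDS, had 358 ± 146 CPM in liver and 4.14 ± 1.89 in testis (SD, n = 10 each), 86.5 times by the means on the TMM scale. AGXT, which detoxifies glyoxylate, had 41.7 CPM in liver and 2 counts in all testis libraries together. TDO2, which opens the tryptophan route that HAAO belongs to, had 1753 ± 768 CPM in liver and 0.239 ± 0.230 in testis, and KYAT1, a kynurenine aminotransferase, was 16.8 times higher in liver. CTH and GNMT of the methionine pathway were 332 and 37.2 times higher in liver. NAGS, which makes the activator of the first urea cycle enzyme, averaged 17.9 CPM in liver and had 0 to 4 counts per testis library, and SLC25A13, the carrier that supplies aspartate to the cycle, was 4.94 times higher. PCBD1, which regenerates the cofactor of phenylalanine hydroxylase, was 17.0 times higher. All of these had an adjusted p under 0.05 in edgeR.

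The list of arginine and ornithine use was divided between the tissues, with 3 IDs higher in liver, 6 higher in testis and 3 not called. AGMAT, which cleaves agmatine, averaged 271 CPM in liver and had 0 to 3 counts per testis library. The transporters of arginine were split, with SLC7A2 25.1 times higher in liver and SLC7A1 5.73 times higher in testis. OAZ2, an inhibitor of polyamine synthesis, was 10.3 times higher in testis. Among glutamine and glutamate genes 4 were higher in liver and 3 in testis. GPT2 and GOT2, mitochondrial aminotransferases, were each about 5 times higher in liver (5.24 and 5.25). ASNS, asparagine synthetase, was 11.3 times higher in testis, and GAD1 had 0.907 CPM in testis and 0 counts in all 10 liver libraries, which makes it at least 2.13-fold higher in testis against a floor of 3 counts per library. Of the branched-chain amino acid and lysine IDs, 7 were higher in liver, such as ACADSB (13.5 times) and GCDH (8.07 times). BCAT2, the mitochondrial enzyme that starts branched-chain amino acid breakdown outside the liver, was 12.6 times higher in testis.

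**Figure D2:**
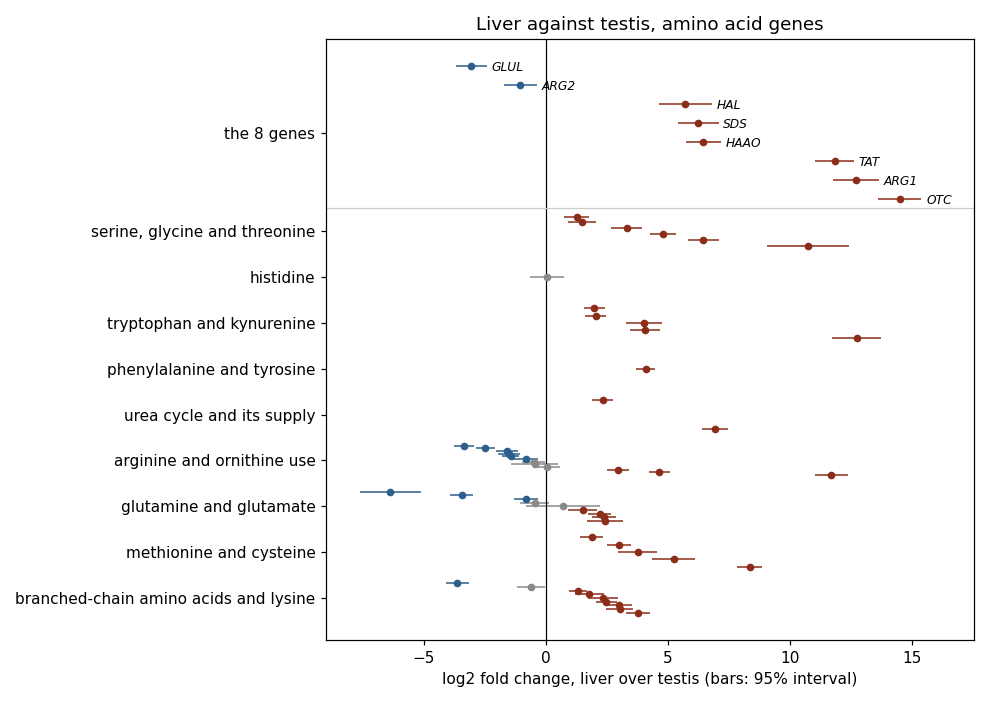
Points are log2 fold changes of liver over testis for the 8 genes and, below the grey line, the 50 other IDs by list, with bars of the 95% interval. Red points were called higher in liver, blue points higher in testis and grey points not called. GLUL and ARG2 lie left of 0 and the other 6 genes right of it, and the arginine and glutamine lists lie on both sides.

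The contrast the study was built for, high against low androstenone, was fitted in testis and in liver separately. No ID passed both thresholds in edgeR's quasi-likelihood test, 0% of 18340 in testis and 0% of 15855 in liver, although 1741 and 465 IDs had an unadjusted p under 0.05. DESeq2 called 119 and 7 IDs. None of the values tested below was thus called over all IDs in edgeR. For the differences on which genes were chosen, no test outcome is read from this. Where the groups of a gene were not chosen for their difference, an exact two-sided permutation test on log2(CPM + 0.5) was made as well, unadjusted. 11 such tests were made, and 5 against 5 samples allow no p below 0.00794. The smallest p of these permutation tests was 0.119, for HAAO in liver. Those for OTC in liver and for ARG1, TAT and OTC in testis are not printed.

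SDS showed the highest levels in the liver of high androstenone boars. The low androstenone livers had 9.79, 28.1, 29.5, 46.0 and 113 CPM and the high androstenone livers 191, 170, 242, 304 and 44.0, in the order of replicates 1 to 5. Of the high androstenone livers 4 lay above every low one, and replicate 5 lay among them. The means were 190 ± 96.7 against 45.3 ± 40.1 CPM (SD, n = 5 each), a log2 fold change of 2.11 on which the gene was chosen. It lay between 1.84 and 2.79 without each sample in turn, the upper value without low androstenone replicate 5. It was 2.08 among the liver libraries over 10 M counts and 2.20 among those under it. In testis, where SDS was not chosen, the groups were 1.22 ± 0.376 and 1.22 ± 0.630 CPM for low and high androstenone (SD, n = 5 each). The log2 fold change was -0.07 (SE 0.35, edgeR adjusted p = 0.965) and the exact permutation test gave p = 0.841.

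HAL in liver had 15.2, 12.3, 22.9, 20.5 and 38.7 CPM in the low androstenone group. In the high androstenone group it had 32.8, 51.4, 281, 24.0 and 25.3 CPM. A single library, replicate 3, held 67.8% of the summed level of its group, and it stood apart by library total as well, at 145 counts per 1000000 against 18.5 to 36.6 in the other 4. The log2 fold change was 1.94 with all samples and 0.68 without this library, and the mean of the other 4 was 33.4 CPM against 21.9 ± 10.3 in the low androstenone group (SD, n = 5). Among libraries under 10 M counts, which leave it out, the log2 fold change was 0.65, and among those over it 2.83. The library was also the deepest, and its 4 hepatocyte markers summed to the highest value of the high androstenone group, 185230 CPM. Their part in the level of HAL was not tested.

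HAL in testis was near the limit of counting, with 1, 1, 10, 8 and 13 counts in low and 4, 56, 40, 3 and 10 counts in high androstenone boars. The high values were those of high androstenone replicates 2 and 3, at 2.42 and 3.83 CPM, and the other 3 lay between 0.213 and 0.960, within or just above the range of the low group (0.0973 to 0.822). With all samples it was 1.87 on the log2 scale, and 1.32 to 2.29 without each sample in turn. It was 1.25 among the libraries over 10 M counts and 3.95 among those under it, where the low androstenone side rests on 1 count in each of 2 libraries.

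HAAO in testis was the only one of the 8 genes whose androstenone groups did not overlap in a tissue. The low androstenone testes had 3.50, 14.6, 2.87, 4.05 and 2.91 CPM and the high androstenone testes 1.12, 2.07, 1.15, 2.02 and 2.78. Every high androstenone value lay below every low one, which was so, in 1 direction or the other, for 1.86% of the IDs tested, and nothing can be read from this since HAAO was chosen on the contrast. Replicate 2 of the low androstenone group supplied much of the size, since the log2 fold change of -1.61 became -0.89 without it. It was -1.04 among libraries over 10 M counts and -2.17 among those under it.

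In liver, where HAAO was not chosen, the values were 292, 488, 186, 306 and 454 CPM in low androstenone boars and 264, 156, 142, 375 and 170.5 in high androstenone boars. All 5 low androstenone livers lay above the median of the high group, but the ranges overlapped. The log2 fold change was -0.56 (SE 0.35, 95% interval -1.25 to 0.13, edgeR adjusted p = 0.9999), and the exact permutation test gave p = 0.119. The direction was that of testis, where HAAO was chosen, so the shared sign is not a result. A difference was not shown in liver.

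ARG2 in testis had 22.9, 55.6, 19.6, 19.3 and 24.5 CPM in the low androstenone group and 26.3, 21.6, 128, 177 and 151 in the high androstenone group. High androstenone replicates 3, 4 and 5 thus lay above every other testis library, and replicates 1 and 2 lay among the low androstenone values. The log2 fold change was 1.82, with 1.51 to 2.20 when each sample was left out. It moved with the depth of the libraries. The 3 high libraries, and low androstenone replicate 2 with 55.6 CPM, were among the 5 with under 10 M counts. Over 10 M counts the values were 19.3 to 24.5 CPM for low (3 libraries) and 21.6 to 26.3 for high androstenone (2 libraries), a log2 fold change of 0.16. Under 10 M counts they were 22.9 and 55.6 against 128 to 177, a log2 fold change of 1.97, and with the depth class as a covariate it was 1.05. Depth was split at 10 M after the data had been seen.

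The summed markers of Leydig, germ and Sertoli cells did not separate the same 3 libraries. In high androstenone testis replicates 3, 4 and 5 the Leydig cell markers summed to 2672, 1647 and 1955 CPM. Germ cell markers summed to 1053, 1188 and 1219 CPM there, and Sertoli cell markers to 191, 116 and 85.3. The Leydig cell markers summed to 694 to 3324 CPM in low and 823 to 3406 in high androstenone testes, the 3 germ cell markers found of 9 to 694 to 1883 and 1016 to 2161, and the 3 Sertoli cell markers found of 7 to 131 to 206 and 55.5 to 191. The part of depth and of cell composition in the ARG2 difference was not tested. The study also measured ARG2 in testis by qRT-PCR. It reports complete concordance with its sequencing in the same samples, and a similar pattern in 5 high and 5 low androstenone boars outside them. In liver ARG2 had 22.2 ± 12.7 CPM in low and 29.8 ± 9.52 in high androstenone boars (SD, n = 5 each). Its log2 fold change there was 0.47 (SE 0.40, edgeR adjusted p = 0.9999), with an exact permutation p = 0.246.

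**Figure D3:**
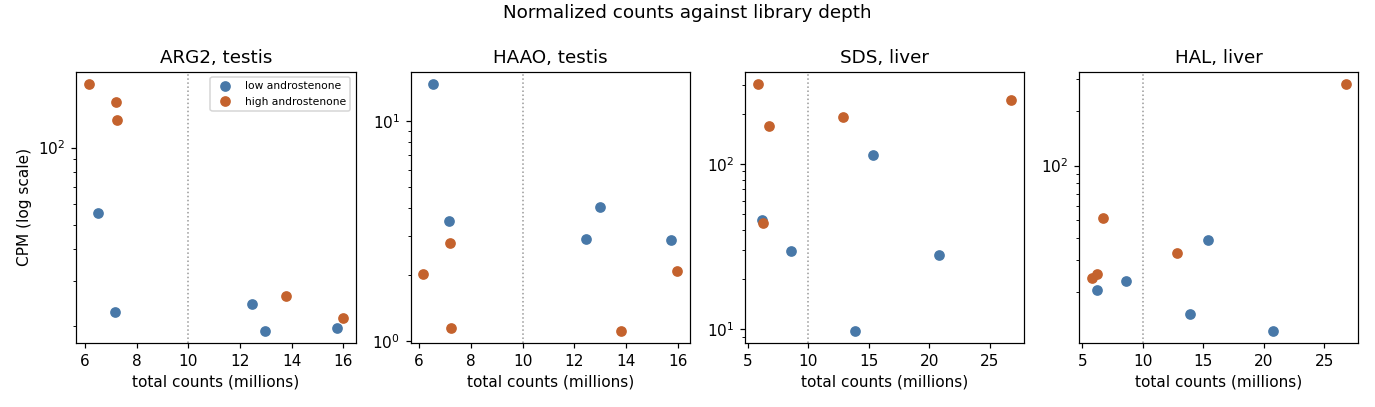
CPM on a log axis against the total counts of each library in M, for ARG2 and HAAO in testis and SDS and HAL in liver, with blue points for low and orange for high androstenone and a dotted line at 10 M counts. High ARG2 levels (128 to 177 CPM) are all left of the line, and the highest HAL level, 281 CPM, is that of the deepest library.

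The genes that were not chosen on any androstenone contrast showed no difference that passed a test. For ARG1 in liver the low androstenone values were 428, 1182, 1191, 711 and 1457 CPM and the high androstenone values 1040, 2084, 1385, 544 and 898. The groups overlapped widely, with a log2 fold change of 0.31 and a 95% interval of -0.49 to 1.10 (edgeR adjusted p = 0.9999, exact permutation p = 0.603). TAT in liver had 239, 568, 576, 512 and 1218 CPM in low androstenone boars and 883, 471, 839, 459 and 382 in high androstenone boars. Its log2 fold change was -0.00 with an interval of -0.79 to 0.78 (exact permutation p = 0.897). OTC in liver had means of 666 ± 241 and 668 ± 227 CPM for low and high androstenone (SD, n = 5 each), a log2 fold change of 0.06 with an interval of -0.58 to 0.71. These intervals leave room for differences in either direction that 5 boars against 5 could not show.

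GLUL in liver had 32.8, 19.3, 23.8, 36.6 and 31.6 CPM in the low androstenone group and a wider range in the high one, with 17.0, 44.4, 48.0, 6.51 and 9.16. Replicates 4 and 5 of the high androstenone group had the lowest levels of the 10 livers and replicates 2 and 3 the highest. This gave a log2 fold change of -0.16 (SE 0.46, edgeR adjusted p = 0.9999, exact permutation p = 0.349). In testis GLUL had 217 ± 131 and 230 ± 46.5 CPM for low and high androstenone (SD, n = 5 each), a log2 fold change of 0.07 (SE 0.32, edgeR adjusted p = 0.962, exact permutation p = 0.548). ARG1, TAT and OTC in testis had at most 6 counts in a library, so a difference there was not detectable at this depth.

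**Figure D4:**
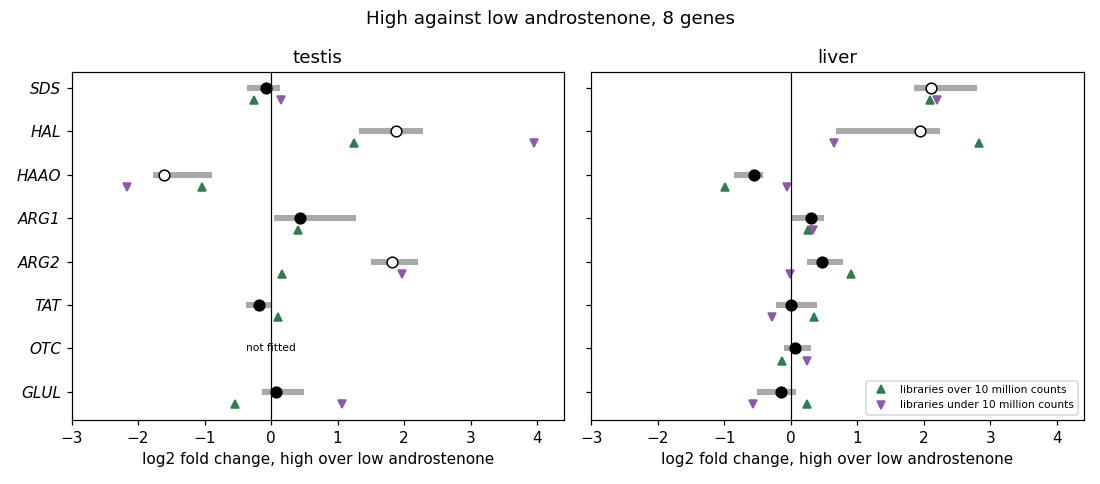
Log2 fold changes of high over low androstenone in testis and liver. Circles are the values with all samples, open where the gene was chosen on that contrast, grey bars span the values without each sample in turn, and triangles are the values among libraries over (upward) and under (downward) 10 M counts. ARG2 in testis falls to 0.16 among the deeper libraries, and ARG1, TAT, OTC and GLUL lie between -0.16 and 0.31 in liver.

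Whether the androstenone difference was unlike between the tissues was tested only for the 4 genes not chosen on one of its sides. The interaction was -0.19 for ARG1, 0.12 for TAT and -0.28 for GLUL, each with an edgeR adjusted p of 0.99999. OTC gave -2.85 at an unadjusted p of 0.0169, but with an edgeR adjusted p of 0.99999 and on testis counts of 0 to 3 this is not a result. Among all 19065 IDs the interaction was called for 0.

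The spread between boars differed among the genes. The biological coefficient of variation, edgeR's estimate of the relative spread within groups, was 0.69 for HAL in testis, higher than for 98.5% of IDs, 0.54 for ARG2 in testis (95.6%) and 0.47 for HAAO in testis (92.9%). In liver it was 0.66 for HAL (90.6%) and 0.62 for SDS (87.2%). All of these were chosen on the androstenone difference in these libraries, so their ranks are a description only. OTC in liver, at 0.39, was near the median of all liver IDs (0.42). Among genes not chosen on the contrast, ARG1 in testis, with at most 6 counts a library, had 0.47 (92.5%). GLUL had 0.36 (80.4%), SDS 0.33 (71.9%) and TAT 0.21 (14.0%) in testis. In liver HAAO, TAT, ARG1, ARG2 and GLUL had 0.41 to 0.52 (46.2% to 75.1%). The median in testis was 0.27.

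None of the 48 IDs tested from the 9 lists was called for androstenone in either tissue by edgeR's quasi-likelihood test, and 5 in testis and 0 in liver had an unadjusted p under 0.05. DESeq2 and edgeR's trended dispersion each called 1 of them in testis, BCKDHB (adjusted p = 0.0479 and 0.0180), and none in liver. The smallest unadjusted p in testis were those of BCKDHB (15.2 ± 4.88 CPM in high and 7.48 ± 3.06 in low androstenone), SLC7A1 (14.4 ± 1.57 and 10.9 ± 1.54) and SDSL (5.14 ± 1.94 and 3.13 ± 1.34) with higher values in the high group. CDO1 (39.7 ± 6.16 and 56.0 ± 14.3) and PHGDH (55.4 ± 22.1 and 86.8 ± 38.6) had lower values there (SD, n = 5 each, edgeR adjusted p between 0.345 and 0.514). In liver they were AMD1, SLC38A2 and SDSL with higher and TPH1, MTR and PCBD1 with lower values in the high group, all with an edgeR adjusted p of 0.9999. SDSL, the paralog of SDS, had 420 ± 136 CPM in the livers of high and 295 ± 140 in those of low androstenone boars, a log2 fold change of 0.54 (SE 0.39).

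The genes whose levels moved most like those of single members were sought by Pearson's r of the deviations from the group means on log2(CPM + 0.5) over the 10 libraries of a tissue, among 4162 named IDs in liver and 4362 in testis. With so many IDs compared over 10 points, high values of r arise readily and are given as a description. For SDS in liver these were PCNX4 (0.95), DHDH (0.94) and TANGO2 (0.90), which kept ranks 2 to 4 without high androstenone replicate 3. For TAT in liver they were GPRASP2 (0.96), KCNK1 (0.94) and GLT8D1 (0.91), at ranks 1, 3 and 4 without that library. For HAL in liver they were TSPAN14, GJB1 and ECI2 (0.98 each), and the ranks became 77, 17 and 138 without it. For ARG2 in testis they were SERPINA5 (0.84), RBM15B (0.82) and SUCLG1 (0.80), and for HAAO in testis TUBD1, NOL9 and NRBF2 (0.95 each for TUBD1 and NOL9, 0.94 for NRBF2). Without testis low androstenone replicate 2 their ranks lay between 13 and 39, and r for the 3 genes of HAAO was 0.72 to 0.76.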

How the data were processed

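RNA of testis and liver from 5 boars with high and 5 with low androstenone was sequenced by the authors with Illumina single reads, 1 lane per sample. Reads were called with CASAVA 1.7 and aligned with BWA to RefSeq mRNA and UniGene sequences of Sscrofa 9.2, and SAMtools is named in the submitters' processing notes. The deposited values are counts, made by the authors as the number of reads on each reference ID and not normalized. How reads that fit several sequences were counted is not given in the sources used here, so paralogs such as SDS and SDSL may share reads. Of 21785 lines per sample, 10 IDs listed 4 times were used once, which left 21755 IDs. The RefSeq table named 6655 of them. Its assembly differs from that of the files and it holds no sequences, so no position or sequence is given.

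Groups came from the sample titles. Replicates are samples of different boars. Counts were normalized by TMM and tested by the quasi-likelihood test of edgeR 4.0.16 (R 4.3.3) with Benjamini-Hochberg adjustment over all IDs with at least 10 counts summed. High and low androstenone were fitted within each tissue. Tissues and the interaction were fitted over the 20 samples, all samples weighing on 1 estimate of spread. An ID was called where the adjusted p was under 0.05 and the difference 1.5-fold or more. Standard errors were taken as the size of the log2 fold change over the root of the F statistic, and 95% intervals as normal intervals around it. Exact permutation tests used a pseudocount of 0.5. The fits were tested on simulated data. Alternatives were DESeq2 1.42.0, RLE, the trended dispersion with a likelihood ratio test, library totals, a minimum of 100 or 1 counts, a log2 fold change of 1.5, other sample sets, a replicate block and leaving out each sample. Depth classes split at 10 M counts were added after the data were seen.

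The members and lists were chosen with earlier results of these data known. Named were every member, in each list the 2 IDs called higher in liver and the 2 called higher in testis with the largest fold changes, over all lists the 3 IDs per direction and tissue with the smallest unadjusted p for androstenone, and the 3 IDs most like 5 members. 1 ID that this rule names is not reported here. Python 3.11.15 was used for summaries and figures, together with pandas 2.3.3, scipy 1.17.1, numpy 2.4.6 and matplotlib 3.10.9. The labels give no batch. P-values measure the spread between these samples.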

Additional observations from a re-analysis of the deposited data

Results flagged for a closer look

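In 30 groups of 5 libraries tested for a value far from the others by Dixon's criterion (a gap above 0.71 of the range), 3 stood out. No rate by chance is set against this number, since the criterion was applied to CPM without a log scale. All 3 also belong to a gene and tissue chosen on the androstenone difference in these samples. HAL in liver high androstenone replicate 3 was at 281.4 CPM, with a gap of 0.893 of the range. HAAO and ARG2 stood out in the same library, testis low androstenone replicate 2, at 14.64 CPM (0.900 of the range) and 55.57 CPM (0.856). That library had 6525777 counts, and its germ cell markers summed to the lowest value of the testis libraries, 694 CPM. The part of these in the levels was not tested.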

How the results depend on the processing

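None of the androstenone values tested for the 8 genes was called under any alternative run, DESeq2 included. This does not cover SDS and HAL in liver or HAL, HAAO and ARG2 in testis, which were chosen on the contrast and not tested. The study lists these among its differentially expressed genes by DESeq. The number of IDs called for androstenone in testis was 0 with all samples, 119 with DESeq2, 225 with the trended dispersion, 5 among libraries under 10 M counts, and 0 to 2 without each sample in turn. In liver it was 0, 7 with DESeq2 and 45 with the trended dispersion, and for the interaction 0 and 1 with DESeq2. The cause was not tested. All 8 genes were called between tissues without each sample in turn. ARG2 was not called in the low androstenone samples alone or at a log2 fold change of at least 1.5. Some log2 fold changes for androstenone that were never called changed sign. TAT in liver (-0.00) was 0.12 with the replicate block, 0.049 with the depth covariate and 0.35 in libraries over 10 M counts. There OTC in liver was -0.14, GLUL in liver 0.25, TAT in testis 0.11 and GLUL in testis -0.55. Under 10 M counts SDS in testis was 0.15 and ARG2 in liver -0.0099. Without each sample in turn, the ranges were -0.36 to 0.13 for SDS, -0.37 to 0.0099 for TAT and -0.13 to 0.49 for GLUL in testis. They were -0.22 to 0.40 for TAT, -0.10 to 0.31 for OTC and -0.51 to 0.079 for GLUL in liver, and -0.996 to 0.21 for ARG1 and -0.085 to 0.51 for TAT in the interaction. The labels do not tie replicate numbers to boars, and the numbers were not taken as a pairing, for which every pair had to be over 0.1: deviations from the group means correlated at a mean of 0.084 (low) and 0.206 (high) between same-numbered testis and liver samples, against -0.022 and -0.055 for other numbers, and at over 0.1 in 3 and 4 of 5 pairs. Same-numbered low and high androstenone samples of 1 tissue are of different boars. These correlated at a mean of 0.095 in testis (over 0.1 in 3 of 5 pairs) and 0.022 in liver (2 of 5). With the replicate numbers as a block, 14201 IDs were called between tissues, against 14436 without it, and 0 for androstenone in either tissue. The 8 genes were called with the block as well.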
